A study of Mus musculus with 3 samples.

Results

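Low-RNA epithelial cells are barcodes from small intestinal crypt preparations that carry the epithelial surface gene Epcam but few transcripts. They were chosen by measured values, as barcodes with at least 500 genes, 1000 to 5000 unique molecular identifiers (UMIs, each standing for 1 captured transcript), at most 20% of UMIs from mitochondrial genes and at least 1 UMI of Epcam. They also had no UMI of the leukocyte gene Ptprc or the T cell gene Cd3e, under 5 UMIs of the plasma cell gene Jchain, under 0.1% of UMIs from the granins Chga and Chgb, and under 0.5% from the goblet cell genes Muc2, Fcgbp, Clca1, Zg16 and Tff3. In all 396 of 14387 barcodes met the rule. They were 117 of the rescue library, 182 of the KO library and 97 of the control library. The limits on UMIs and on these 11 genes were read from the same cells that are described, so the low depth and the low level of those genes are not results.

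The study compared crypts of adult C57BL/6 mice of 2 to 3 months by droplet single-cell RNA sequencing with 3' end counting (10x Chromium, version 3), with 1 library per genotype. All mice carried Olfm4-IRES-eGFPCreERT2, a tamoxifen-dependent Cre recombinase. Rescue mice were also CDC42flox/flox with Yapflox/flox and Tazflox/+, KO mice were CDC42flox/flox, and control mice were CDC42+/flox. All 3 genotypes therefore share the Cre allele and at least 1 floxed Cdc42 allele, so the control is not a wild type. Cre is driven from Olfm4, a gene of crypt base stem cells, so recombination can reach the whole epithelium only through descendants of those cells, and the sources used here give neither its extent nor the inducing treatment. Because each genotype is 1 library, differences between genotypes have no replicate check and no test. Intervals given for levels and ratios are 95% exact intervals that cover counting error only, and a fold against a library with no UMI of a gene is a bound computed against 3 counts.

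Epithelial cells of the small intestine are renewed from stem cells at the crypt base. Their absorptive descendants, the enterocytes, migrate up the villus while turning on genes for fat, iron, calcium and nucleoside handling, and are shed near the villus tip. Cells that are shed, damaged during preparation or otherwise leaky lose cytoplasmic transcripts, and droplets that contain them give barcodes with few UMIs, and whether this applies to the cells described here was not tested. The 4 genes proposed as markers of the low-RNA cells have separate roles. Ubd encodes FAT10, a ubiquitin-like protein induced by interferon gamma and tumour necrosis factor. Isg15 encodes another ubiquitin-like protein, induced by type I and type III interferon. S100g encodes calbindin-D9k, the vitamin D dependent calcium buffer of duodenal enterocytes, and Mt2 encodes a metallothionein that binds zinc and is induced by zinc through the factor MTF1.

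The members were shallow in every library. They held 326732 UMIs in rescue, 514843 in KO and 206884 in control, with a median per cell of 2715 UMIs in rescue cells, 2773 in KO cells and 1855 in control cells. They made up 9.41% (interval 7.85 to 11.2%) of Epcam-bearing barcodes within the gene, depth and mitochondrial limits in rescue, 10.1% (8.76 to 11.6%) in KO and 8.25% (6.74 to 9.97%) in control. The median mitochondrial share was 6.63% in rescue members, 12.9% in KO members and 10.4% in control members, all under the limit of the rule. Deep epithelial cells, used for comparison, had at least 2 Epcam UMIs and over 10000 UMIs, and numbered 715 in rescue, 1260 in KO and 459 in control. No member barcode was shared between libraries.

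Transcripts of the X inactivation RNA Xist and of the Y-linked genes Ddx3y, Eif2s3y, Uty and Kdm5d separated the libraries. In rescue, 7 members had Xist only, 10 had Y-linked UMIs only and 100 had neither. In KO, 48 members had Xist only and 0 had Y-linked UMIs only, whereas in control 0 had Xist only and 17 had Y-linked UMIs only. Deep cells followed the same division, with 619 Xist-only and 68 Y-only cells in rescue, 1237 and 0 in KO, and 0 and 434 in control. The rescue library thus held cells of both kinds, which means more than 1 animal, and Y-only cells were 58.8% (interval 32.9 to 81.6%) of its assignable members against 9.59% (7.52 to 12%) of its assignable deep cells. Only 17 of 117 rescue members were assignable. Xist was at 27.5 CPM (9 UMIs) in rescue members and 504 CPM in deep rescue cells, and the Y-linked genes at 33.7 CPM and 10.8 CPM. In KO, Xist was at 272 CPM in members and 239 CPM in deep cells, so it was not lower in shallow cells there. Whether low-RNA and deep rescue cells came from the same mix of animals was not tested. With so few assignable members, these shares do not give the share of each animal. In KO and control the sex of the cells and the genotype cannot be told apart. The file headers also name Cell Ranger 3.1.0 for rescue and 3.0.2 for KO and control, so software version and genotype cannot be told apart for rescue.

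The summed members of each library carried the epithelial genes that their label names. All 18 genes of an epithelial list (keratins, claudins, Cdh1, Cdx1, Cdx2, Hnf4a, Vil1 and others) were detected in the members of each library. Their summed level was 13081 CPM (the UMIs of a gene scaled to a fixed total of UMIs over the summed cells) in rescue members, 22849.7 CPM in KO members and 14366 CPM in control members. T cells of 1000 to 5000 UMIs, which should lack these genes, held 599 CPM in rescue, 2223 CPM in KO and 1041 CPM in control. A list of 20 T cell genes summed to 413 CPM in rescue members, 789 CPM in KO members and 338 CPM in control members, against 49857 CPM, 37862 CPM and 45188 CPM in the T cells of rescue, KO and control. Of these 20 genes 8 were at 0 in rescue members, 6 in KO members and 6 in control members. At least 1 UMI of an immune defining gene was nevertheless present in 36 members of rescue, 19 of KO and 43 of control. Single members drew up to 3.88% (rescue), 9.23% (KO) and 0.289% (control) of their UMIs from the T cell list, against medians of 3.82%, 3.05% and 5.06% in the T cells of these libraries, so the rule let in a few barcodes with T cell levels of these genes in rescue and KO. The myeloid list reached up to 3.21% of UMIs in a rescue member, 1.86% in a KO member and 2.89% in a control member.

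The members were not of 1 kind in every library. The enterocyte list made up a median of 6.51% of a cell's UMIs in rescue members, 6.60% in KO members and 0.628% in control members, against 0.0925%, 0.550% and 0.126% in the T cells of rescue, KO and control. Most control members thus carried little of it. In deep cells its median was 0.669% in rescue, 8.61% in KO and 0.175% in control. After each cell was thinned to 1000 UMIs, at least 2 UMIs of the Paneth list, the granule genes of antimicrobial cells at the crypt base, were found in 23.1% of rescue members, 1.10% of KO members and 86.6% of control members. The T cells, which should lack these genes, reached the same in 12.5% (rescue), 0% (KO) and 67.4% (control), so much of this share lay at the level of free RNA. A single control member drew 55.3% of its UMIs from that list. The cycling list reached 2 thinned UMIs in 13.7% of rescue members, 5.49% of KO members and 42.3% of control members, against 20.3%, 16% and 18% of the T cells of rescue, KO and control, above the T cells in control alone. The stem cell list reached it in 22.7% of control members and 0.562% of control T cells. The T cells were deeper than the members, so their shares may understate free RNA in members. The summed Paneth list was 1309.9 CPM in rescue members, 75.8 CPM in KO members and 15787 CPM in control members. The part of cell type in the differences between libraries, and between low-RNA and deep cells, was not tested.

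**Figure D1:**
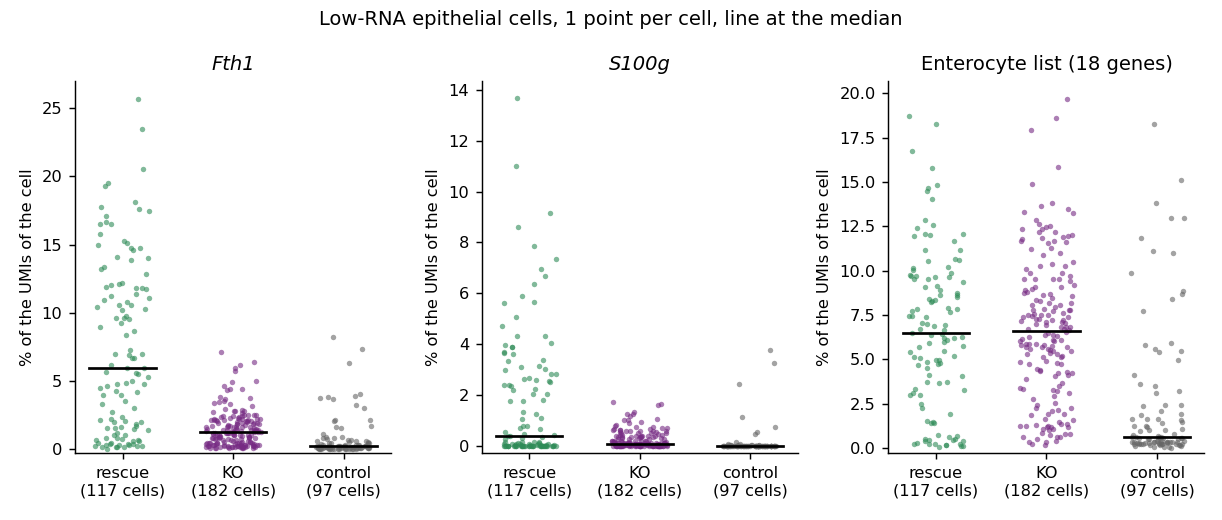
Each point is 1 low-RNA cell of the rescue, KO or control library, with the percent of its UMIs from Fth1 (left), from S100g (middle) and from the 18-gene enterocyte list (right). Fth1 and S100g were spread over many rescue cells, while most control cells lay near 0 for the enterocyte list, with a median of 0.628%.

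Cdc42, the gene floxed in all 3 genotypes, was not lower in the members of either library with 2 floxed alleles. Its level was 814 CPM in rescue members, 373 CPM in KO members and 232 CPM in control members, from 266, 192 and 48 UMIs in rescue, KO and control. It was 379.9 CPM in deep rescue cells, 388 CPM in deep KO cells and 247 CPM in deep control cells. The sources used here do not name the floxed exons, and UMIs are counted at the 3' end of the gene (chr4:137319696-137357720, minus strand, GRCm38), so these UMIs do not check the deletion. Yap1, floxed on both alleles in rescue, was at 27.5 CPM in rescue members, 48.6 CPM in KO members and 82.2 CPM in control members, and Wwtr1, which encodes TAZ, was at 6.12 CPM in rescue members, 19.4 CPM in KO members and 0 CPM in control members, with 2, 10 and 0 UMIs in rescue, KO and control, too few to compare.

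The promoters of 4 genes are shown because they respond to the signals named above, interferon for Isg15 and Ubd and zinc for Mt2 and its neighbour Mt1. Each runs from 250 bases before to 50 bases after the RefSeq gene start on GRCm38.p6 and is written 5' to 3' on the strand of the gene. Capitals mark GAAANNGAAA, the core of the interferon-stimulated response element, in Isg15, and TGCACNC or TGCGCNC, cores of the metal response element, in Mt2 and Mt1, found on either strand. The windows are chr4:156200769-156201068 on the minus strand for Isg15, and chr17:37193642-37193941, chr8:94172368-94172667 and chr8:94178839-94179138 on the plus strand for Ubd, Mt2 and Mt1.
Isg15: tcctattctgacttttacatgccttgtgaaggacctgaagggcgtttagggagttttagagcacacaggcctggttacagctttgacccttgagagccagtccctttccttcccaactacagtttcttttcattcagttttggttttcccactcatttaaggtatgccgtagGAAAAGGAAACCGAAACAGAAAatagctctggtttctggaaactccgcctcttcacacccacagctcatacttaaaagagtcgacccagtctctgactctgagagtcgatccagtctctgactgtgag
Ubd: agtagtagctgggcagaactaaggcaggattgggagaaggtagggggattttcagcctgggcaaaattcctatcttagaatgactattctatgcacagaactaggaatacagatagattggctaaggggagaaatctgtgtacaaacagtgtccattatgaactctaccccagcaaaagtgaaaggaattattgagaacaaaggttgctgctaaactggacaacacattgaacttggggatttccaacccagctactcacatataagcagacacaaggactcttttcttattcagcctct
Mt2: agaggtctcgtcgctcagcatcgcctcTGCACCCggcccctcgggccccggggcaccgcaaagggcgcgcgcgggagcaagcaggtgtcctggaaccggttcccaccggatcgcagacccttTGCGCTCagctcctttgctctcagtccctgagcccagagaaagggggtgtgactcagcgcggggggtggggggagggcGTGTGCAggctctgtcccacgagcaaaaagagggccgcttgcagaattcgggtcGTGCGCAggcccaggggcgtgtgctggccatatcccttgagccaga
Mt1: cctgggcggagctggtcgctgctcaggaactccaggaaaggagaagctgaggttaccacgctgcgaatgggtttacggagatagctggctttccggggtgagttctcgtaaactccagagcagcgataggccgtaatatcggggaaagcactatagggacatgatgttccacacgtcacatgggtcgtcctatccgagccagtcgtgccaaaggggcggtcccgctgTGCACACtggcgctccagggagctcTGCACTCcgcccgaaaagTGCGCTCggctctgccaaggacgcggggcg
The Isg15 window held 3 overlapping matches to GAAANNGAAA, starting at -78, -72 and -66 relative to the gene start, a motif present on either strand in 3.45% of 32544 promoters of this length. The Ubd window held no match to GAAANNGAAA and none to TTCNNNGAA, a core of the gamma-activated site present in 8.33% of promoters. Mt2 held 4 matches to the metal response cores and Mt1 held 3, and 25.9% of promoters held at least 1. Both strands were searched, and the matches describe these letters alone.

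The 4 markers did not mark the low-RNA cells of all libraries alike. They had been chosen for their levels in these cells, so the levels are a description. Ubd was at 496 CPM in rescue members, 0 CPM in KO members and 4.83 CPM in control members (162, 0 and 1 UMIs in rescue, KO and control). Only the rescue members carried it at a level above a few UMIs, and its deep cells held 3.63 CPM, against 2.76 CPM in deep KO cells and 0.101 CPM in deep control cells. Rescue members were at least 85.1-fold higher than KO members, in which no UMI was counted, and 103-fold (interval 18.2 to 4076) higher than control members, where it rests on 1 UMI.

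S100g was the most abundant of the 4. Its level was 19560.4 CPM in rescue members, 2278 CPM in KO members and 1121 CPM in control members, and 877 CPM in deep rescue cells, 2236 CPM in deep KO cells and 249 CPM in deep control cells. It was highest in low-RNA rescue cells among these 6 sums, and as high in rescue cells of 5000 to 10000 UMIs, which lie between the low-RNA and the deep cells. Rescue members exceeded KO members 8.59-fold (interval 8.07 to 9.14) and control members 17.4-fold (interval 15.3 to 20). In deep cells the rescue level was below the KO level, so the order of these libraries differed between the low-RNA and the deep sums. The enterocyte list had a median of 0.669% in deep rescue cells and 8.61% in deep KO cells, and its part here was not tested. The spread over cells differed too. UMIs of S100g were found in 82 of 117 rescue members, 141 of 182 KO members and 16 of 97 control members, and in control 209 of its 232 UMIs came from 5 cells.

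Isg15 was at 392 CPM in rescue members, 79.6 CPM in KO members and 82.2 CPM in control members, and 37.4 CPM in deep rescue cells, 36.1 CPM in deep KO cells and 46.4 CPM in deep control cells. It was highest in rescue members and close in KO and control members. The rescue level was 4.92-fold (interval 3.44 to 7.17) that of KO members and 4.77-fold (interval 2.86 to 8.44) that of control members. Mt2 had another order, with 27.5 CPM in rescue members, 439 CPM in KO members and 53.2 CPM in control members, and 50.1 CPM in deep rescue cells, 193 CPM in deep KO cells and 47.6 CPM in deep control cells. KO members were 8.26-fold (interval 4.53 to 16.8) over control members, and rescue members were 15.9-fold (interval 8.25 to 35.3) below KO members. Mt2 was thus highest in the KO library at both depths.

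The rescue levels were also taken by Xist and Y-linked UMIs, since that library holds cells of more than 1 animal. Ubd was at 177 CPM (5 UMIs) in the 10 Y-only members and 455 CPM (8 UMIs) in the 7 Xist-only members, and at 530.4 CPM in the 100 members with neither. Each of these lay above the KO and control members. S100g was at 6379 CPM in Y-only members and 1707 CPM in Xist-only members, and at 22001.5 CPM in members with neither. The interval of the Xist-only rescue members for S100g, 1152 to 2436 CPM, overlapped that of the KO members, at 2278 CPM (2150 to 2413). Fth1 was at 73284 CPM in Y-only members, 24462 CPM in Xist-only members and 88138 CPM in members with neither.

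Free RNA in the droplets gives UMIs in cells that do not express a gene, and T cells of the same UMI range give a guide to its level. The median depth was 2715 UMIs in rescue members, 2773 UMIs in KO members and 1855 UMIs in control members, against 4258, 4039.5 and 4319 UMIs in the T cells of rescue, KO and control. With every cell thinned to 1000 UMIs, Ubd was found in 22.2% of rescue members, against 0.862% of rescue T cells, and in no member of KO or control. Unthinned shares were 30.8% of rescue members and 1.29% of rescue T cells. S100g was found after thinning in 61.5% of rescue members and 13.4% of rescue T cells, in 54.9% of KO members and 20% of KO T cells, and in 11.3% of control members and 0.562% of control T cells. Members thus lay above their T cells for S100g in all 3 libraries. The T cells were deeper, and a given amount of free RNA is a larger share of a shallower cell. Thinning does not remove this, so T cell shares may understate free RNA in members for every gene here. Isg15 reached 23.9% of rescue members and 11.6% of rescue T cells, but 7.14% of KO members against 6.00% of KO T cells, and 9.28% of control members against 6.74% of control T cells. In KO and control the interval of the Isg15 share overlapped that of the T cells, at 3.86 to 11.9% of members against 1.25 to 16.5% of T cells in KO and 4.33 to 16.9% against 3.53 to 11.5% in control. T cells can express interferon-induced genes themselves. Mt2 reached 2.56% of rescue members, 22% of KO members and 6.19% of control members, against 0.862%, 12% and 1.12% of the T cells of rescue, KO and control. For Mt2 the intervals of members and T cells overlapped in all 3 libraries, in KO at 16.2 to 28.7% against 4.53 to 24.3%.

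**Figure D2:**
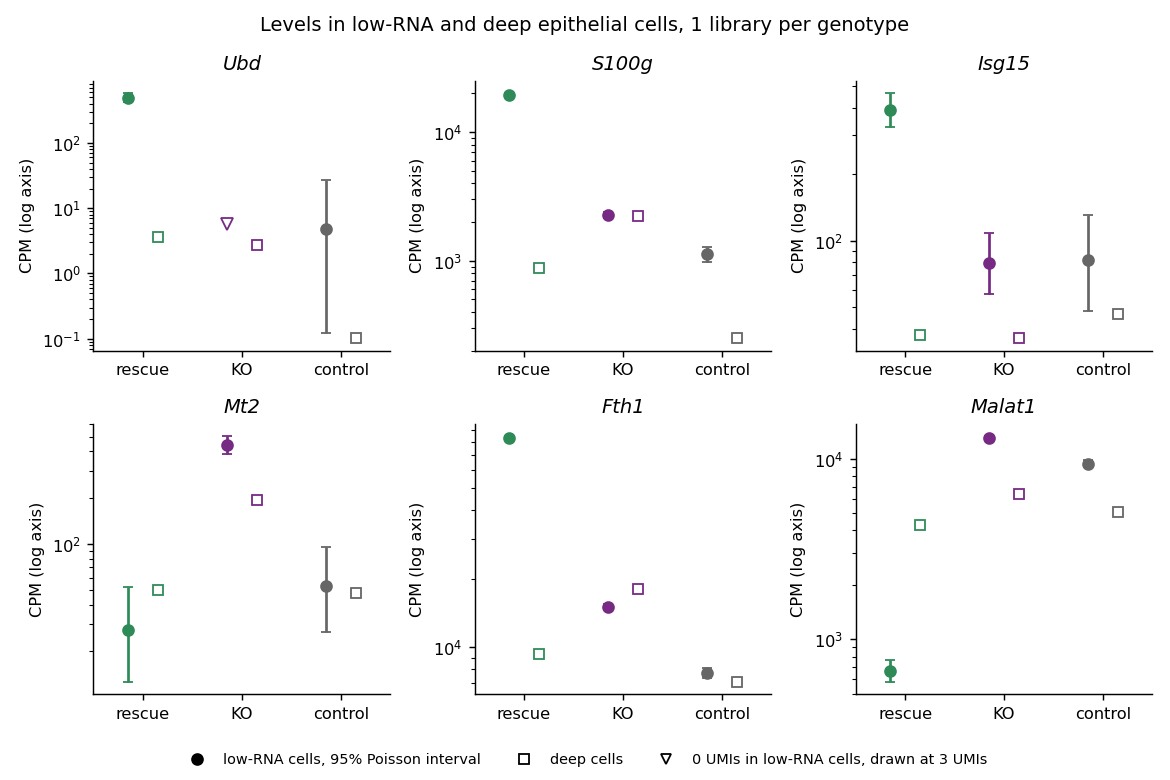
Levels in CPM on a log axis of Ubd, S100g, Isg15, Mt2, Fth1 and Malat1 in low-RNA and deep epithelial cells of the rescue, KO and control libraries, with 95% exact intervals for counting error. Ubd, S100g, Isg15 and Fth1 were highest in low-RNA rescue cells, and Malat1 was lowest there at 667 CPM.

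The rescue pattern did not stop at the limit of 5000 UMIs. Cells that passed the same gene limits were taken in the ranges 1000 to 2000, 2000 to 3000, 3000 to 4000, 4000 to 5000, 5000 to 10000, 10000 to 20000 and over 20000 UMIs, which held 36, 31, 29, 21, 34, 7 and 534 rescue cells. Across these ranges Ubd in rescue was at 336, 180.1, 647, 685, 163, 74 and 4.08 CPM. S100g in rescue was at 18245, 13249, 19524, 25513, 24688, 1289 and 978 CPM. Cells just inside the limit (4000 to 5000 UMIs) and just outside it (5000 to 10000 UMIs) thus had similar S100g, and the drop came above 10000 UMIs, where 7 rescue cells fell between 10000 and 20000. Fth1, the ferritin heavy chain, followed the same course in rescue at 48225, 80328, 84734, 104474, 93782, 24111 and 9869 CPM. In KO no such step appeared: S100g was at 3367, 1775, 1654, 2649.5, 1832, 1602 and 2452 CPM over the same ranges. In control it was at 1203, 2736, 49.5, 0, 1964, 49.3 and 279 CPM, with 8 cells in the range from 4000 to 5000 and 5 from 5000 to 10000. Gm26917, a noncoding gene that lies in the ribosomal RNA unit on chromosome 17, had another course. It was at 4728, 33089, 38223, 17352, 11079, 4269 and 243 CPM in KO and 41006, 41987, 79286, 31035, 7364, 1546 and 1234 CPM in control, higher in every range below 10000 UMIs than above 20000, but at 168, 64.3, 79.6, 42.2, 47.9, 52.8 and 276 CPM in rescue.

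**Figure D3:**
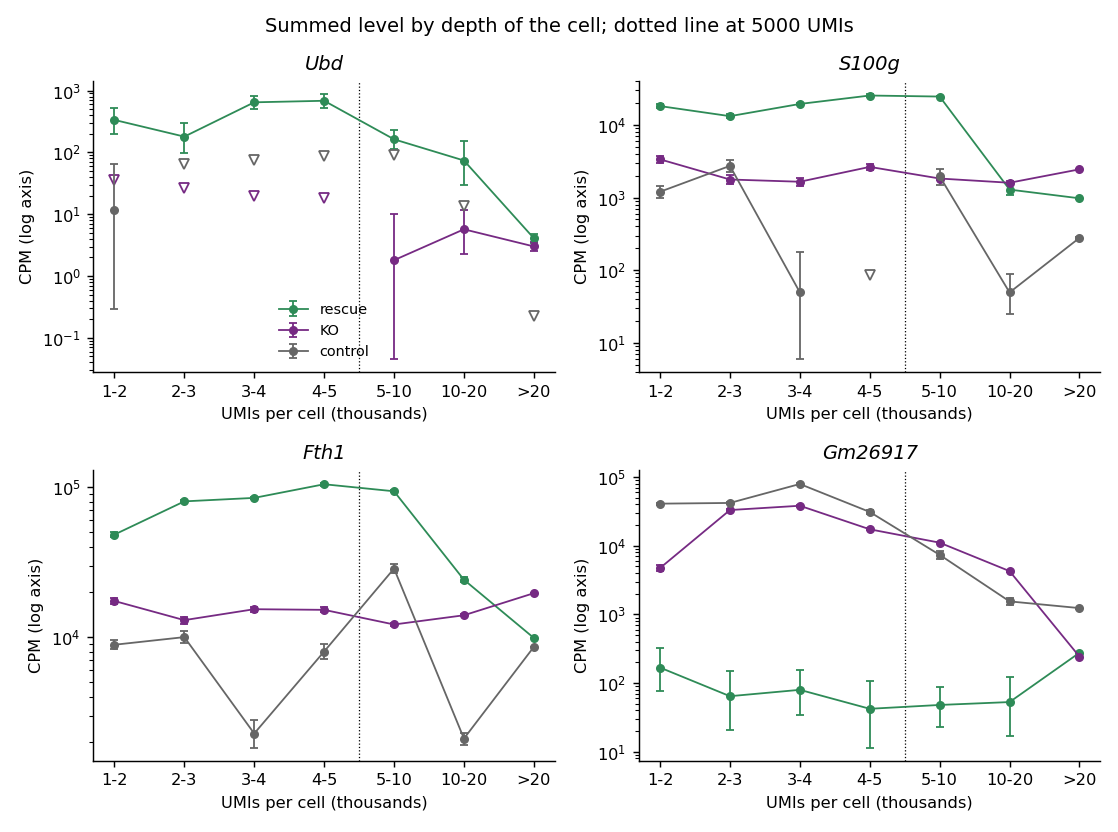
Level in CPM (log axis) of Ubd, S100g, Fth1 and Gm26917 by the UMI range of the cell in rescue, KO and control cells that pass the gene limits, with open triangles where no UMI was counted, drawn at 3 UMIs, and a dotted line at the limit of 5000 UMIs. In rescue, Ubd, S100g and Fth1 stayed high up to 10000 UMIs and were lower above, while Gm26917 was high in shallow KO and control cells alone.

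KO members differed from control members in absorptive, iron, zinc and injury-associated genes. Among 3373 genes that reached 20 UMIs in KO or control members, 569 (16.9%) were at least 2-fold higher and 382 (11.3%) at least 2-fold lower in KO members on log2(CPM + 5), with a median log2 ratio of 0.13. In deep cells 17.3% of these genes were higher and 4.86% lower. The split depends on scaling. Of the genes past 2-fold, 59.8% were higher with CPM and 80.4% with TMM scaling, which moved the median log2 ratio of all genes to 0.47.

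Of a list of genes raised in injured or fetal-like epithelium, 11 of 13 measured were higher in KO members and 0 lower, with a median log2 ratio of 2.62. S100a6, a calcium-binding protein, was at 4335 CPM in KO members and 29 CPM in control members, a ratio of 149-fold (interval 68.6 to 408). Anxa10, an annexin found in stomach lining, was at 769 CPM in KO members with no UMI in control members, at least 53-fold higher, and the aspartic protease Ctse was at 175 CPM with none in control. These genes were as high in deep KO cells, where S100a6 was at 5019 CPM and Anxa10 at 651 CPM, against 53.9 CPM and 0 CPM in deep control cells. They therefore were not particular to shallow cells. Sprr2a3, a small proline-rich barrier gene in a family of close copies among which counting can split reads, was at 1619.9 CPM in KO members and 43.5 CPM in control members.

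Zinc and iron genes were mostly higher in KO members. Of the zinc list 5 of 6 measured genes were at least 2-fold higher. Mt1 was at 2515 CPM in KO members and 580 CPM in control members, a ratio of 4.34-fold (interval 3.59 to 5.27). Slc39a4, the zinc importer of the apical membrane, was at 332 CPM in KO members and 29 CPM in control members. Of the iron list 5 of 8 were higher and 0 lower. Cybrd1, the duodenal ferric reductase, was at 779 CPM in KO members and 9.67 CPM in control members, from 2 UMIs, a ratio of 80.6-fold (interval 22.2 to 668). Slc11a2, the apical iron importer, was at 344 CPM in KO members and 43.5 CPM in control members, and Slc40a1, the basolateral exporter ferroportin, at 427 CPM and 33.8 CPM in the same order. Fth1 itself was at 15108 CPM in KO members and 7700 CPM in control members, just under 2-fold higher.

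Of the enterocyte list 9 of 17 measured genes were higher in KO members and 1 lower, with a median log2 ratio of 1.08. Alpi, the intestinal alkaline phosphatase, was at 2304 CPM in KO members and 271 CPM in control members, a ratio of 8.51-fold (interval 6.51 to 11.3). Anpep, an aminopeptidase of the brush border, went the other way at 136 CPM in KO members and 309 CPM in control members. Of dietary lipid genes 11 of 20 were higher and 1 lower, and Apoa4, an apolipoprotein of chylomicrons, was at 5959 CPM in KO members and 1643 CPM in control members. Car2, a carbonic anhydrase, was at 476 CPM in KO members and 4.83 CPM in control members, from 1 UMI.

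Genes of crypt base cells and of division were lower in KO members. Of the Paneth list 7 of 7 measured genes were lower and none higher, and all 7 were also lower in deep KO than deep control cells. Lyz1, the Paneth cell lysozyme, was at 23.3 CPM in KO members and 1358 CPM in control members, and 218 of its 281 control UMIs came from 5 cells. All 4 measured cycling genes were lower in KO members, among them Ube2c, a ubiquitin-conjugating enzyme of mitosis, at 11.7 CPM in KO members and 276 CPM in control members. Of genes induced within minutes by dissociation or stimulation 11 of 17 were lower and 1 higher. In deep cells 11 of these 17 were lower too, with a median log2 ratio of -1.59 against -1.35 in members. Of the 4 cycling genes only 1 was lower in deep cells. Fosb was at 13.6 CPM in KO members and 387 CPM in control members, a level 28.4-fold (interval 13.2 to 73) lower in KO. Among 82 measured ribosomal protein genes 43 were at least 2-fold lower and none higher, and these genes made up 7.20% of UMIs in KO members and 15% in control members.

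Interferon genes showed no common direction between KO and control members. Of 16 measured, 5 were higher and 2 lower, with a median log2 ratio of 0.22. Cxcl9, a T cell attracting chemokine, was at 73.8 CPM in KO members and 9.67 CPM in control members, but all 38 of its KO UMIs came from 1 cell. Class II antigen presentation genes were lower in KO members for 3 of 4, with Cd74, the invariant chain, at 171 CPM in KO members and 604 CPM in control members. In control 117 of 125 Cd74 UMIs came from 5 cells, and in KO 84 of 88.

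Rescue members had the injury-associated, zinc and iron uptake genes at lower levels than KO members, and ferritin, S100g and some interferon genes at higher levels. Of a list of calcium and vitamin D genes, which holds S100g, 3 of 10 measured were at least 2-fold higher and 2 lower. Of 3392 measured genes 353 (10.4%) were at least 2-fold higher in rescue members and 916 (27%) at least 2-fold lower, with a median log2 ratio of -0.27. In deep cells 5.22% of these genes were higher and 13.8% lower. The comparison shares its KO library with the comparison of KO with control, so values that were high in KO members alone appear in both.

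Of the injury list 9 of 13 measured genes were lower in rescue members and 0 higher, with a median log2 ratio of -3.25. S100a6 was at 52 CPM in rescue members and 4335 CPM in KO members, 83.3-fold (interval 51.9 to 143) lower in rescue. Anxa5, an annexin that binds phosphatidylserine, was at 3.06 CPM and Tm4sf4, a tetraspanin-like membrane protein, at 85.7 CPM in rescue members, against 208 CPM and 2199 CPM in KO members. All 6 measured zinc genes were lower. Mt1 was at 379.5 CPM in rescue members and 2515 CPM in KO members, and Slc39a4 at 49 CPM and 332 CPM in the same order. Of classic YAP target genes 5 of 8 were lower in rescue members and 0 higher, against 27% of all genes lower, with few UMIs for most of them.

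The iron list split by role. Storage genes were higher in rescue members, with Fth1 at 83429 CPM in rescue members and 15108 CPM in KO members, a ratio of 5.52-fold (interval 5.38 to 5.66), and Ftl1, the ferritin light chain, at 7912 CPM and 2954 CPM in the same order. Ferritin light chain has processed copies in the genome, so its counts are uncertain. Uptake and export genes were lower. Cybrd1 was at 15.3 CPM in rescue members and 779 CPM in KO members, and Slc11a2 at 9.18 CPM in rescue members and 344 CPM in KO members. The median cell gave 59736 CPM of Fth1 in rescue, 12543 CPM in KO and 2078 CPM in control, and Fth1 exceeded 1% of UMIs in 94 rescue members, 108 KO members and 17 control members. In T cells of the same UMI range the median cell gave 2789 CPM in rescue, 2953 CPM in KO and 3136 CPM in control.

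Absorptive genes were mostly lower. Of the enterocyte list 2 of 17 measured genes were higher in rescue members and 9 lower, against 10.4% higher and 27% lower over all genes. Higher genes in this list, and in the lipid and brush border lists below, were thus about as frequent as over all genes or less. Fabp2, the intestinal fatty acid binding protein, was at 19533 CPM in rescue members and 7319 CPM in KO members, a ratio of 2.67-fold (interval 2.56 to 2.78). Fabp1, the liver-type binding protein, was at 14394 CPM and Rbp2, the retinol binding protein of enterocytes, at 25170.5 CPM in rescue members, against 7837 CPM and 16046 CPM in KO members, both under 2-fold. These genes encode small cytosolic binding proteins. Of dietary lipid genes 14 of 20 were lower and 2 higher, Fabp2 and Apoc3, an apolipoprotein of chylomicrons with a log2 ratio of 1.70. Lower were Apoa4, another apolipoprotein of chylomicrons, at 955 CPM in rescue members and 5959 CPM in KO members, and Alpi at 187 CPM in rescue members and 2304 CPM in KO members. Of the brush border list 13 of 23 were lower and 1 higher, namely Espn, an actin bundler of microvilli, at 707 CPM in rescue members and 260.3 CPM in KO members.

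Of the interferon list 6 of 18 measured genes were higher in rescue members and 4 lower, with a median log2 ratio of 0.21 against -0.27 over all genes. The higher genes include Ubd and Isg15, chosen as markers for their levels in these cells. Over all genes 10.4% were higher and 27% lower, so the share of lower interferon genes was near that of all genes, and so was that of lower class I genes. Besides Ubd and Isg15, Zbp1, a sensor of Z-form nucleic acid, was at 309 CPM in rescue members and 21.4 CPM in KO members, a ratio of 14.5-fold (interval 7.75 to 29.9), and was found in 56 of 117 rescue members and 10 of 182 KO members. Ube2l6, the conjugating enzyme for ISG15, was at 107 CPM in rescue members and 9.71 CPM in KO members. Of antigen processing genes of class I 6 of 14 were higher and 4 lower, led by Psmb8, an immunoproteasome subunit, at 759 CPM in rescue members and 62.2 CPM in KO members. Psmb8 was also higher in deep rescue cells, at 326 CPM against 36.1 CPM in deep KO cells. All 5 measured class II genes were higher in rescue members, and Cd74 was found in 76 of 117 rescue members and 9 of 182 KO members. The same 5 genes were at least 2-fold higher in deep rescue than deep KO cells. Their median log2 ratio was 2.59 there and 1.99 in members, so this difference was not particular to shallow cells.

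Nuclear-retained RNA was low in rescue members. Malat1, a long noncoding RNA kept in the nucleus, was at 667 CPM in rescue members, 12934 CPM in KO members and 9343 CPM in control members, a level 19.4-fold (interval 16.9 to 22.3) lower in rescue members than in KO members. The level was 4281 CPM in deep rescue cells, 6324 CPM in deep KO cells and 5070.4 CPM in deep control cells, a much smaller gap between rescue and KO. Neat1, the noncoding scaffold of paraspeckles, was at 42.8 CPM in rescue members, 548 CPM in KO members and 425 CPM in control members. Gm26917 was at 79.6 CPM in rescue members, 24953 CPM in KO members and 47046 CPM in control members. It took over 1% of the UMIs in 0 of 117 rescue members, 37 of 182 KO members and 63 of 97 control members, against 0 of 232, 0 of 50 and 7 of 178 T cells of rescue, KO and control. Its UMIs were found in every control T cell as well, so their mere presence does not set control members apart. Its neighbour Gm42418, in the same ribosomal RNA unit, was at 5564 CPM in rescue members, 30015 CPM in KO members and 23810.4 CPM in control members. Of nuclear genes for respiratory chain subunits 10 of 29 were higher in rescue members and none lower, whereas of the 13 mitochondrial genes 6 were lower and none higher, a group whose sum the rule limits. Of the epithelial list 10 of 17 genes were lower in rescue than in KO members and 0 higher, and against control members 8 of 17 were lower and 1 higher, which was Krt20. The lowest ratios were those of Krt18 and Cldn4. Krt18, a keratin, was at 208 CPM in rescue members, 1408 CPM in KO members and 2354 CPM in control members, and Cldn4, a claudin of tight junctions, at 15.3 CPM in rescue members, 352 CPM in KO members and 299.7 CPM in control members.

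Against control members, rescue members differed at both ends. Of 2258 measured genes 486 (21.5%) were at least 2-fold higher and 531 (23.5%) at least 2-fold lower in rescue members, with a median log2 ratio of 0.13, whereas in deep cells 1.64% of the same genes were higher and 2.66% lower. Of the genes past 2-fold, 47.8% were higher with CPM, 69.0% with TMM scaling, which moved the median of all genes to 0.56, and 37.1% with CPM outside mitochondrial and ribosomal protein genes. The comparison shares its rescue library with the comparison with KO and its control library with the comparison of KO with control.

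The 4 measured iron genes were higher in rescue members, led by Fth1 at 83429 CPM in rescue members and 7700 CPM in control members, a ratio of 10.8-fold (interval 10.3 to 11.4). Reg3b, an antimicrobial lectin, was at 7519.9 CPM in rescue members and 159.5 CPM in control members, a ratio of 47.1-fold (interval 33.5 to 68.6), and its relative Reg3g at 2133 CPM and 82.2 CPM in the same order. Both were also higher in deep rescue cells, where Reg3b was at 12664 CPM against 461 CPM in deep control cells. Of the interferon list 8 of 15 were higher and 2 lower, with a median log2 ratio of 1.12 against 0.13 over all genes. Over all genes 21.5% were higher and 23.5% lower. The higher genes include Ubd and Isg15, which were chosen as markers for their levels in these cells, so the count and the median are a description. Of genes for respiratory chain subunits 14 of 29 were higher and none lower. Of the injury list only 4 of 22 genes were measured here, Sprr2a3, S100a10, Anxa2 and S100a11. All 4 were at least 2-fold higher in rescue than in control members, with a median log2 ratio of 2.29. In deep cells 0 of these were 2-fold higher, with a median of 0.59. Injury genes were thus below KO members but not all at the control level.

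Lower in rescue than in control members were 11 of 14 immediate early genes, 9 of 14 chaperone genes, 7 of 7 Paneth genes and 5 of 5 tuft cell genes. Fosb was at 27.5 CPM in rescue members and 387 CPM in control members. Dclk1, a kinase of tuft cells, was at 0 in rescue members and 280.4 CPM in control members, where all 58 UMIs came from 4 cells. Among ribosomal protein genes 53 of 82 were lower in rescue members and 1 higher, and the group made up 6.37% of UMIs in rescue members and 15% in control members.

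**Figure D4:**
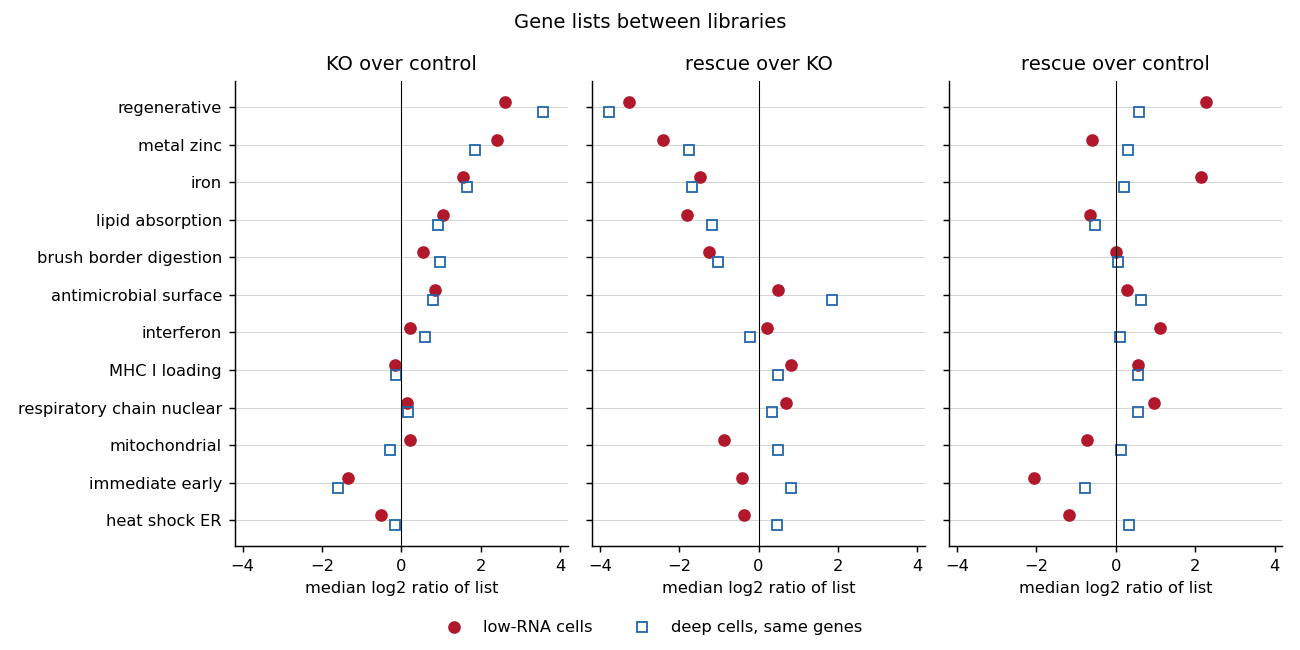
Median log2 ratio of 12 gene lists for KO over control, rescue over KO and rescue over control, in low-RNA cells (filled) and deep cells (open). Zinc and injury-associated lists were high in KO at both depths. The immediate early list of rescue over control was at -2.05 in low-RNA cells and -0.77 in deep cells.

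Across the 3 libraries together, few genes separated low-RNA from deep epithelial cells in the same way. With edgeR's quasi-likelihood test, the library as a block and Benjamini-Hochberg adjustment over 11286 genes, 93 genes (0.824%) were higher and 144 (1.28%) lower in low-RNA cells at an adjusted p under 0.05, and 1514 (13.4%) had an unadjusted p under 0.05. The 3 libraries are the replicates here, so the test averages over 3 genotypes. Within libraries the distance differed. At least 2-fold, 16.9% of genes were higher and 29.4% lower in low-RNA than deep cells in rescue, 2.97% and 3.86% in KO, and 13.8% and 5.78% in control, so KO low-RNA cells were the closest to their deep cells. The enterocyte list had medians of 6.60% in KO members and 8.61% in deep KO cells. These were 6.51% and 0.669% in rescue, and 0.628% and 0.175% in control. The part of cell type in these distances was not tested. Without the control library 31 genes were called higher and 56 lower, without KO 50 and 54, and without rescue 223 and 243.

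The leading gene was Ada, adenosine deaminase, which enterocytes near the villus tip make. It was at 8147 CPM in rescue members, 5268 CPM in KO members and 3195 CPM in control members, and 90.7 CPM in deep rescue cells, 4016 CPM in deep KO cells and 5.64 CPM in deep control cells. It rose with a log2 fold change of 5.99 ± 1.13 (SE), adjusted p = 4.92e-04 in edgeR. Within libraries the log2 ratio was 6.41 in rescue, 0.39 in KO and 8.23 in control, so KO contributed little. In control 649 of 661 UMIs came from 5 cells, and without the control library the log2 fold change was 3.45 with an adjusted p of 0.60 in the same edgeR test. Of the villus tip list 1 of 15 genes rose, which was Ada itself. Slc28a2, a concentrative nucleoside transporter of that list, had a log2 fold change of 1.69 ± 0.63 (SE), adjusted p = 0.173 in edgeR, which did not pass.

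Of 43 tested interferon genes 8 rose and 0 fell, and 17 had an unadjusted p under 0.05. They were Ubd and Isg15, which were chosen as markers of these cells, with Zbp1, Ifit1bl1, Ddx60, Oasl2, Irf7 and Cxcl9. The rise of Ubd rests on the rescue library: without it the log2 fold change was -0.32 with an adjusted p of 0.979 in edgeR, and KO members held no UMI against 2.76 CPM in deep KO cells. Isg15 and Zbp1 did not pass without rescue either, at 0.86 and 0.69 log2. The Cxcl9 UMIs came from 3 rescue members, 1 KO member and 1 control member, and 38 of them from the KO cell. Zbp1 was at 309 CPM in rescue members, 21.4 CPM in KO members and 14.5 CPM in control members, and 17.2 CPM in deep rescue cells, 11.8 CPM in deep KO cells and 8.76 CPM in deep control cells, with a log2 fold change of 2.24 ± 0.52 (SE), adjusted p = 0.00948 in edgeR. Ifit1bl1, a relative of the antiviral RNA-binding protein IFIT1 with close copies that counting can split, was at 125 CPM in rescue members, 95.2 CPM in KO members and 0 CPM in control members, and 15.9 CPM in deep rescue cells, 34.1 CPM in deep KO cells and 7.15 CPM in deep control cells, with a log2 fold change of 1.78 ± 0.46 (SE), adjusted p = 0.0245 in edgeR. The median log2 fold change of the list was 0.80, against -0.16 over all genes. DESeq2 called 3 of the 43, and edgeR called 7 of 50 without control, 3 of 44 without KO and 2 of 44 without rescue.

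Gm42418, Lars2 and AY036118 rose in low-RNA cells. Gm42418 rose, at 5564 CPM in rescue members, 30015 CPM in KO members and 23810.4 CPM in control members, and 1502 CPM in deep rescue cells, 5138 CPM in deep KO cells and 1774 CPM in deep control cells, with a log2 fold change of 2.66 ± 0.67 (SE), adjusted p = 0.0181 in edgeR. It did not pass without control (adjusted p = 0.80), without KO (0.47) or with the gene limits on deep cells (0.0838) in the same edgeR test. Lars2, a mitochondrial tRNA ligase, was at 107 CPM in rescue members, 1614 CPM in KO members and 2547 CPM in control members, and 57.3 CPM in deep rescue cells, 122 CPM in deep KO cells and 131 CPM in deep control cells, with a log2 fold change of 3.01 ± 0.50 (SE), adjusted p = 5.11e-05 in edgeR, and it did not pass without control (adjusted p = 0.11) or without KO (0.0662). AY036118, an annotated noncoding transcript, was at 741 CPM in rescue members, 926 CPM in KO members and 793 CPM in control members, and 144 CPM in deep rescue cells, 122 CPM in deep KO cells and 98.1 CPM in deep control cells, the most even of the leading genes over the libraries, with a log2 fold change of 2.70 ± 0.39 (SE), adjusted p = 4.95e-06 in edgeR. Gm26917 was high in KO and control members alone and did not pass the test, at a log2 fold change of 3.80 ± 1.19 (SE), adjusted p = 0.0829 in edgeR. Lars2 shared the library order of Gm26917, lowest in rescue and highest in control members. Whether the Lars2 UMIs came from transcripts of the ligase gene was not tested.

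Espn rose, at 707 CPM in rescue members, 260.3 CPM in KO members and 247 CPM in control members, and 46.3 CPM in deep rescue cells, 202 CPM in deep KO cells and 50 CPM in deep control cells, with a log2 fold change of 2.12 ± 0.47 (SE), adjusted p = 0.00503 in edgeR. It was the only gene of the brush border list that passed, of 29 tested, and it did not pass without control (adjusted p = 0.153) or with the gene limits on deep cells (0.0805) in edgeR. Foxo3, a transcription factor of stress and quiescence, also rose at 1.99 log2, and Pxdc1 at 1.91 log2, but Foxo3 did not pass without control (adjusted p = 0.516 in edgeR). None of 18 enterocyte genes and none of 18 epithelial genes passed, with 6 and 4 at an unadjusted p under 0.05. S100g, chosen as a marker, had within-library log2 ratios of 4.47 in rescue, 0.03 in KO and 2.15 in control, and Fth1 of 3.16 in rescue, -0.25 in KO and 0.12 in control, so both separated low-RNA from deep cells in rescue far more than in KO. Tfrc, the transferrin receptor, fell, at 21.4 CPM in rescue members, 19.4 CPM in KO members and 58 CPM in control members, and 172 CPM in deep rescue cells, 44.2 CPM in deep KO cells and 119 CPM in deep control cells, with a log2 fold change of -1.78 ± 0.41 (SE), adjusted p = 0.00799 in edgeR. No gene of the iron list was called lower by DESeq2 or by edgeR without KO.

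Of 13 Paneth genes 13 fell in low-RNA cells, with Lyz1 at 104 CPM in rescue members, 23.3 CPM in KO members and 1358 CPM in control members, and 1549 CPM in deep rescue cells, 208 CPM in deep KO cells and 11373 CPM in deep control cells. Deep control cells drew 147738 CPM from the Paneth list. With the gene limits of the rule applied to deep cells 8 of 13 fell. Of 7 tested tuft genes 5 rose, with Dclk1 at 0 CPM in rescue members, 71.9 CPM in KO members and 280.4 CPM in control members, and 3.70 CPM in deep rescue cells, 0.436 CPM in deep KO cells and 4.48 CPM in deep control cells and 0, 2 and 4 members of rescue, KO and control carrying its UMIs. Without the control library 1 of 8 tested tuft genes rose. Of 12 myeloid genes 4 rose, namely C1qa, C1qb, C1qc and Aif1, but C1qb came from 3 rescue members, 1 KO member and 2 control members, and none of 6 passed after members with immune UMIs were left out. Of chaperone genes of heat shock and the endoplasmic reticulum 4 of 21 fell, namely Hsp90b1, Sdf2l1, Calr and Pdia4, while DESeq2 called none of them with 9 at an unadjusted p under 0.05. Lower levels of goblet and enteroendocrine genes follow from the rule and are not a result, which covers Agr2, Spink4, Cck, Reg4 and Ghrl among the genes with the lowest fold changes.

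**Figure D5:**
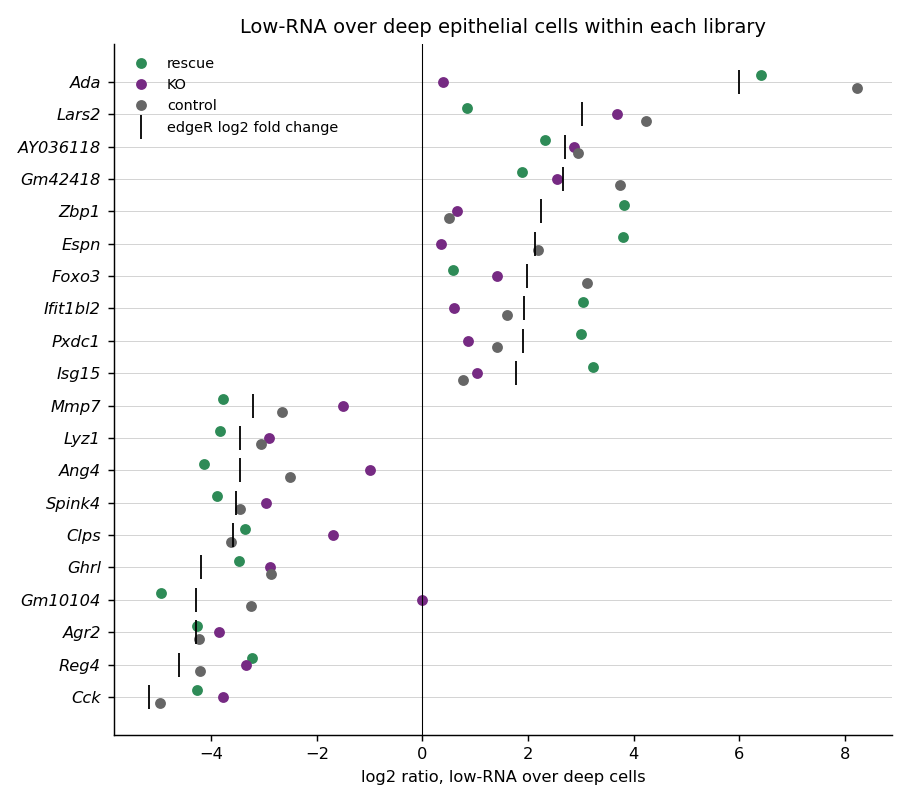
Log2 ratio of low-RNA over deep cells for the 10 highest and 10 lowest named genes within the rescue, KO and control libraries (points), with the edgeR log2 fold change over the 3 libraries as a tick. Ada was high in rescue and control but near 0 in KO at 0.39. Secretory cell genes were low in all 3 libraries, which for goblet and enteroendocrine genes follows from the rule and is not a result.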

How the data were processed

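Single-cell RNA sequencing of small intestinal crypts was deposited as 1 matrix per library for rescue, KO and control mice. Crypts were digested with 3x TrypLE for 1 h and 4000 to 5000 cells were harvested, per the labels. The deposited values are UMI counts per gene and barcode, which the authors made with Cell Ranger (1.3.0 per the submitters' processing notes, 3.1.0 for rescue and 3.0.2 for KO and control per the file headers). Aligner settings and genome build: not given in the sources used here. Among 28692 gene identifiers 28339 (98.77%) matched GENCODE vM21 on GRCm38, which gave the gene coordinates, and promoters came from RefSeq GRCm38.p6. The 3 libraries held 64355665 UMIs in 3449 barcodes (rescue), 85525811 in 4786 (KO) and 58433966 in 6152 (control). No doublet caller was run on the members, and members with any UMI of 13 immune defining genes were left out in an alternative. At these depths 20 UMIs in a library correspond to a level whose counting interval is wide, and intervals cover counting error only.

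UMIs of the members were summed per library and given as CPM with exact Poisson intervals. Ratios had conditional exact binomial intervals, and list medians used log2(CPM + 5) over genes that reached 20 UMIs in either library. Low-RNA and deep cells were compared on 6 sums with edgeR 4.0.16 (TMM, filterByExpr, quasi-likelihood test, library as block), with DESeq2 1.42.0 as an alternative, in R 4.3.3. The SE given with an edgeR log2 fold change is its absolute value divided by the square root of the F statistic. It was thus derived from the test and is not an output of edgeR. Shares of cells with a UMI were taken after thinning each cell to 1000 UMIs, with exact Clopper-Pearson intervals. In data simulated for KO over control with 3876 genes, the ratio step found 50 of 50 genes with a true fold of 4 and 28 of 50 with a fold of 2 past 2-fold, and 136 of 3681 unchanged genes. These were Poisson draws from the control profile, without spread between cells or libraries. In data simulated for low-RNA over deep cells with 11140 genes, edgeR called 50 of 50 genes with a fold of 4, 19 of 50 with a fold of 2 and 1 of 10940 unchanged genes. All 6 sums were drawn from 1 mean profile with a fixed dispersion and no library effect. Only genes above a minimum expected count were changed. Real libraries differ more than this, so both simulations do not give the rates in the real data. The members, the lists, the markers and the tests were chosen with earlier results of these data known. Named for each library comparison were the 10 highest and 10 lowest genes with at least 100 CPM in 1 library and an interval that excluded 1. Named between low-RNA and deep cells were the 10 highest and 10 lowest that passed the test in 1 direction within all 3 libraries. Genes of the rule and mitochondrial, ribosomal protein, immunoglobulin and alpha-defensin genes were left out of that choice, and up to 3 members from each end of a list were added. A few of the genes so named are not reported here.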

Additional observations from a re-analysis of the deposited data

Results flagged for a closer look

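A difference between libraries ran opposite ways in low-RNA and in deep cells, or was present in low-RNA cells and near 0 or opposite in deep cells, for 6 named genes. These differences between depths were not tested. S100g had a log2 ratio of rescue over KO of 3.10 in low-RNA cells and -1.34 in deep cells. Cdc42 had 1.12 in low-RNA cells and -0.03 in deep cells for the same libraries, and Ube2l6, the conjugating enzyme for ISG15, had 2.93 in low-RNA cells and -0.27 in deep cells. Isg15 had a log2 ratio of rescue over control of 2.19 in low-RNA cells and -0.28 in deep cells. For KO over control, the linker histone gene Hist1h1b had -4.60 in low-RNA cells and 1.15 in deep cells, and Ube2c had -4.07 in low-RNA cells and 0.14 in deep cells. Hist1h1b had 0 UMIs in KO members and 24 in control members, of which 17 came from 5 cells, and Ube2c had 6 and 57 UMIs in KO and control members.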

How the results depend on the processing

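No paired analysis was possible because each genotype is 1 library, so genotypes share no replicates and only the low-RNA and deep sums of 1 library pair, which the block uses. For KO over control, 569 genes were at least 2-fold higher and 382 lower. These counts were 281 and 137 with at least 50 UMIs, 1248 and 2443 with no filter, 261 and 228 for members of 1000 to 2500 UMIs, 248 and 183 with at most 10% mitochondrial UMIs, and 912 and 223 with TMM scaling. The lower count alone moved to 232 for 2500 to 5000 UMIs and 242 with at least 2 Epcam UMIs. For rescue over KO, 353 were higher and 916 lower, against 201 and 349 with at least 50 UMIs, 992 and 2399 with no filter, and 144 and 235 for 1000 to 2500 UMIs, while the lower count was 340 with at most 10% mitochondrial UMIs. For rescue over control, 486 were higher and 531 lower, against 1114 and 3482 with no filter, 175 and 159 for 1000 to 2500 UMIs, and 783 and 351 with TMM scaling. There the lower count was 186 with at least 50 UMIs, 268 for 2500 to 5000 UMIs, 259 with at most 10% mitochondrial UMIs, 290 with at least 2 Epcam UMIs and 288 without members with immune UMIs. Fewer cells and genes entered most of these settings. For low-RNA over deep cells, 93 genes were higher and 144 lower, and both counts were 0 without the library term, where 829 genes had an unadjusted p under 0.05 in edgeR. DESeq2 called 84 higher, 63 of them shared, and 58 lower, all 58 shared. The lower count was 43 with the gene limits applied to deep cells and 65 with limits on the Paneth and tuft lists added after seeing the data. Leaving out 1 library in turn gave 31 to 223 higher and 54 to 243 lower, so the counts depend on the library left out. The cause of these shifts was not tested. The members' share of Epcam-bearing barcodes in rescue was 16.3% with at most 10% mitochondrial UMIs, 5.89% with at least 2 Epcam UMIs and 6.52% without immune UMIs. In KO it was 5.60% with at most 10% mitochondrial UMIs and 8.35% with at least 2 Epcam UMIs, and in control 6.46% with at most 10% mitochondrial UMIs and 4.59% without immune UMIs. Direction turned for rescue over control with no filter in the median of the injury list (-0.11) and of the p53 and apoptosis list (-0.23). It also turned for Matk, which became 1.77 for 1000 to 2500 UMIs and 0.81 with at most 10% mitochondrial UMIs. In low-RNA over deep cells it turned for Ubd without rescue (-0.32, against 7.06 without KO) and for Cck with the gene limits on deep cells (0.27). The Paneth and tuft limits select cells on these lists themselves, so values of their genes under them are no test. With them, the log2 fold changes turned positive for Cck (0.35), Reg4 (1.05), Agr2 (0.44), Clps (2.50), Spink4 (1.87), Ang4 (2.71), Lyz1 (2.21) and Mmp7 (2.18). TMM scaling also turned the small KO over control values of Isg15, of the class I list and of the YAP target list positive. CPM outside mitochondrial and ribosomal protein genes turned the rescue over control medians of the enterocyte and brush border lists negative. Over single genes, 861 of 994 values between libraries moved by less than counting error and 4 reversed, and of 263 values for low-RNA over deep cells 201 kept direction and call, 51 lost the call, 1 gained it and 10 reversed.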

Other observations

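Several named genes with other roles also separated the members of the libraries. Spink1, a trypsin inhibitor, was at 2026 CPM in rescue members, 79.6 CPM in KO members and 358 CPM in control members, and St3gal4, a sialyltransferase, was at 220.4 CPM in rescue members, 0 CPM in KO members and 0 CPM in control members. St3gal4 was also highest in deep rescue cells, at 296 CPM, against 0.871 CPM in deep KO cells and 3.32 CPM in deep control cells. Oat, the ornithine aminotransferase, was at 199 CPM in rescue members, 25.2 CPM in KO members and 589.7 CPM in control members, lowest in KO at both depths. Edn1, the precursor of endothelin, was at 0 CPM in rescue members, 93.2 CPM in KO members and 213 CPM in control members, and Fn1, fibronectin, at 0 CPM in rescue members, 122 CPM in KO members and 0 CPM in control members. Gm8730, an annotated gene model, was at 3.06 CPM in rescue members, 472 CPM in KO members and 923 CPM in control members, and 22.5 CPM in deep rescue cells, 715 CPM in deep KO cells and 977 CPM in deep control cells, low at both depths in the library whose header names another Cell Ranger version.

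The Xist-only and Y-only cells of the rescue library also differed at depth. In deep rescue cells Ubd was at 31.9 CPM (interval 26.5 to 38.0) in 68 Y-only cells, with UMIs in 8 of them, and 0.941 CPM (0.659 to 1.30) in 619 Xist-only cells. Isg15 was at 136 CPM in the Y-only and 27.8 CPM in the Xist-only deep cells. The sources used here do not say how many animals gave these cells, so these values have no replicate and no test.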
